A study of Homo sapiens with 8 samples.

Results

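The BMP response genes described here are *ID1*, *ID2*, *ID3*, *ID4*, *SMAD6*, *SMAD7*, *SMAD9*, *ATOH8*, *BAMBI* and *BMP4*, which are 10 of the 13842 genes in the expression table. They were taken by gene symbol, and all 10 were listed and passed the filter on low values. The symbols were proposed with results of these same libraries in view, so the levels and fold changes of these 10 genes are given as a description without a test. The RNA-seq libraries came from 2 human breast epithelial cell lines, MCF10A, a non-tumorigenic line, and DCIS.COM, a line of the same lineage that forms lesions like ductal carcinoma in situ. Each line had been stably transduced with the pLOC lentiviral vector, either without an insert (pLOC-empty) or carrying the long noncoding RNA *MALINC1* (pLOC-*MALINC1*), and all cells were selected with blasticidin. There were 2 libraries in each of the 4 groups and 8 in all. Whether a transduced line was a pool or a clone, and whether the 2 libraries of a group came from separate cultures, was not given in the sources used here, so the spread between libraries may be technical. The lines were grown in different media. That of MCF10A held epidermal growth factor, hydrocortisone, insulin and cholera toxin beside horse serum, whereas that of DCIS.COM was given with horse serum alone. A difference between the lines and a difference between their media cannot be told apart.

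Bone morphogenetic proteins (BMPs) are secreted ligands of the TGF-beta family. They bind pairs of type I and type II receptor kinases, which phosphorylate SMAD1, SMAD5 and SMAD9, and these enter the nucleus with SMAD4 and bind regulatory DNA. The *ID* genes are among the best known direct targets of this pathway. Their products lack a DNA-binding region and hold back E proteins, the basic helix-loop-helix partners that they pair with, and in mammary epithelium they are known for restraining differentiation. *SMAD6* and *SMAD7* encode inhibitory SMADs, and *BAMBI* encodes a receptor-like protein without a kinase, so the pathway induces some of its own brakes.

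The libraries held between 20604377 and 37550457 reads counted on genes, and this depth limits the precision of the rarer genes. *MALINC1* was at 1.07 and 1.58 CPM (reads of a gene scaled to the total of its library) in the MCF10A pLOC-empty libraries and at 13.3 and 11.8 CPM in the MCF10A pLOC-*MALINC1* libraries. In DCIS.COM it was at 1.42 and 1.22 CPM without the insert and at 24.5 and 19.2 CPM with it, so the vector labels of all 8 libraries held. The level of *MALINC1* does not check the labels of the cell lines. All 10 epithelial markers looked for were listed in every group, with a summed level of 21146 to 21377 CPM in MCF10A pLOC-empty and 28817 to 29583 CPM in MCF10A pLOC-*MALINC1*, and of 9419 to 9614 and 10166 to 10434 CPM in DCIS.COM. *RN7SL1* and *RN7SL2*, small cytoplasmic RNAs that are counted in the totals, took from 8.22% to 15.7% of the reads.

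The positions of the genes are those of GRCh37 (hg19). *ID1* lies on chromosome 20 from 30193086 to 30194318, *ID2* on chromosome 2 from 8818975 to 8824591 and *ID4* on chromosome 6 from 19837601 to 19842428, all on the plus strand, and *ID3* lies on the minus strand of chromosome 1 from 23884417 to 23885992. *SMAD6* spans 66994574 to 67075187 on the plus strand of chromosome 15, *SMAD7* spans 46446223 to 46477335 on the minus strand of chromosome 18 and *SMAD9* spans 37418968 to 37495024 on the minus strand of chromosome 13. *ATOH8* lies on the plus strand of chromosome 2 from 85978467 to 86018506, *BAMBI* on the plus strand of chromosome 10 from 28966439 to 28971861 and *BMP4* on the minus strand of chromosome 14 from 54416454 to 54425479. Genes on the opposite strand overlap *ID2* (ID2-AS1), *ID4* (LNC-LBCS) and *BMP4* (ENSG00000287156), and the strand setting of the read counting was not given in the sources used here. Genes on the same strand lie across *SMAD6* (ENSG00000274995) and *SMAD9* (SMAD9-IT1), where no strand setting could part them. The values of these 5 genes may therefore be affected by reads of the overlapping gene.

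DNA before the start sites of the 10 genes was searched for 3 SMAD motifs on both strands, because SMAD proteins are known to bind such elements in *ID* and *SMAD* genes. The window ran from 1500 bases before to 50 bases after the start of the canonical transcript. GGCGCC, a GC-rich SMAD site, stood in the windows of 7 of the 10 genes (70%), beside 52.9% of 12871 windows of the same length. GTCTAGAC, a palindrome of 2 SMAD half-sites, stood in the windows of *SMAD6* and *SMAD7*, beside 0.932% of all windows. A composite BMP element was searched in a single fixed spelling, GGCGCC followed after a gap of 5 bases by GTCT, which contains the GC-rich site. This spelling stood in 0 of the 10 windows and in 0.396% of all. Other spellings of its second part were not searched, so the 0 does not show that such elements are absent. The stretches below are shown because they hold the matches in the genes that carry the results, namely *ID1*, *ATOH8* and *SMAD6*, and in the inhibitors *SMAD7* and *BAMBI*, which hold matches of the same kinds. They are read 5′ to 3′ on the strand of the gene, in GRCh37, with the matching bases in capitals.
ID1 (chr20:30192092-30192171, plus strand, bases -1000 to -921 from the start): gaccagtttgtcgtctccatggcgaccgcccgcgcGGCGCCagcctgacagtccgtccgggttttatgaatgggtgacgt
ATOH8 (chr2:85980274-85980353, plus strand, bases -840 to -761 from the start): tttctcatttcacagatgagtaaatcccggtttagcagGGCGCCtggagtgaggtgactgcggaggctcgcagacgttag
SMAD6 (chr15:66994494-66994573, plus strand, bases -80 to -1 from the start): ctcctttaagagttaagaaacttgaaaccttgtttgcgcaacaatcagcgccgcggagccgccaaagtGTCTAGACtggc
SMAD7 (chr18:46478556-46478635, minus strand, bases -1300 to -1221 from the start): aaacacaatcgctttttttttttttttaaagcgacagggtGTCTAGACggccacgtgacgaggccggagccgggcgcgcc
BAMBI (chr10:28966210-28966289, plus strand, bases -240 to -161 from the start): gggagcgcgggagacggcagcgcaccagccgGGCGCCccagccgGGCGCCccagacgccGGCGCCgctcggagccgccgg

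The match in *ID1* began at base -965 from the start site and that in *ATOH8* at base -802. *SMAD6* held 4 GC-rich sites that began between -1257 and -1077, with the palindrome at -12, and *SMAD7* held the palindrome at -1260 and 3 GC-rich sites that began between -991 and -781. *BAMBI* held 5 GC-rich sites, of which 3 lie within the stretch shown. *ID2* and *ID4* held 1 each, and no match was in the windows of *ID3*, *SMAD9* and *BMP4*. The GC content of the 10 windows ran from 48.5% to 67.2%, with a median of 52.4% over all windows, and the windows with 3 or more GC-rich sites were those of *SMAD6* (67.2%), *SMAD7* (64.0%) and *BAMBI* (57.4%). In the expression data described next, every gene with a match was lower with *MALINC1* in MCF10A, where 9 of all 10 genes were lower. In DCIS.COM the genes with a match were split. *BAMBI* and *SMAD7* were lower there and the others higher, although *BAMBI* and *SMAD7* hold matches of the same kinds as *ID1* and *SMAD6*. A part of the motifs in these directions was not tested. A match is a match of letters and not evidence of binding.

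**Figure D1:**
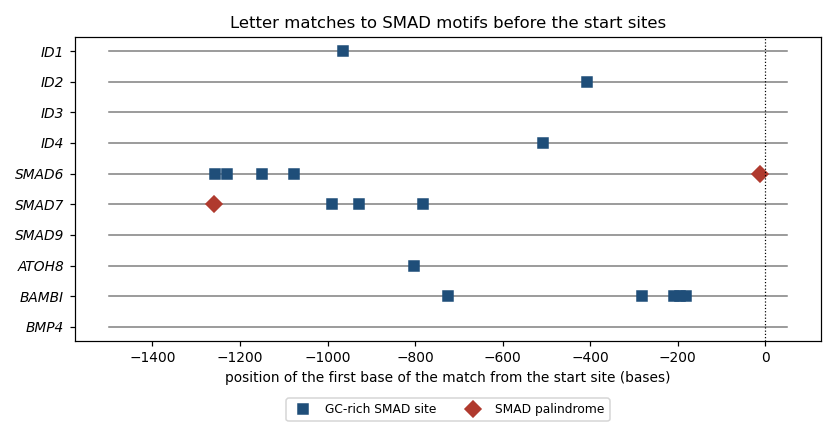
Positions of letter matches to SMAD motifs before the start sites of the 10 BMP response genes, in bases from the start site, with 1 line per gene for the window searched. Squares mark the GC-rich site and diamonds the palindrome; *SMAD6* and *SMAD7* hold both kinds, and *ID3*, *SMAD9* and *BMP4* hold none.

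The levels of the *ID* genes, whose products bind and hold back E proteins, were lower with *MALINC1* in MCF10A and higher with *MALINC1* in DCIS.COM. *ID1* was at 173 and 188 CPM in the MCF10A pLOC-empty libraries and at 113 and 113 CPM with *MALINC1*, a log2 fold change (log2 FC, pLOC-*MALINC1* over pLOC-empty) of -0.68 with a standard error (SE) of 0.041. Its level in DCIS.COM was 98.5 and 99.3 CPM with pLOC-empty and 251 and 261 CPM with *MALINC1*, a log2 FC of 1.37 (SE 0.041). The groups of a line did not overlap in either line, and the order of the lines was turned, since DCIS.COM had the lower *ID1* level without the insert and the higher level with it. Here and below CPM values are the deposited log2 values taken back to the linear scale, in which a gene without reads stands at 0.0713 CPM, and the standard error of a gene is the same in both lines because all 8 libraries share 1 estimate of the spread.

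*ID3* followed the pattern of *ID1* in both lines. It was at 131 and 128 CPM in MCF10A pLOC-empty and at 68.4 and 74.5 CPM with *MALINC1*, a log2 FC of -0.86 (SE 0.054). The DCIS.COM libraries had 41.9 and 40.2 CPM with pLOC-empty and 119 and 132 CPM with *MALINC1*, a log2 FC of 1.61 (SE 0.054). With *MALINC1* the *ID3* level of DCIS.COM thus came to the range of the MCF10A pLOC-empty libraries, at a mean of 125 ± 9.27 CPM (SD, n = 2) beside 130 ± 2.20 CPM.

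*ID4* was much rarer than *ID1* and *ID3*. It was at 1.93 and 2.29 CPM in MCF10A pLOC-empty and at 1.41 and 1.17 CPM with *MALINC1*, a log2 FC of -0.71 (SE 0.18). In DCIS.COM it was at 1.004 and 1.22 CPM with pLOC-empty and at 7.27 and 7.08 CPM with *MALINC1*, a log2 FC of 2.70 (SE 0.18), which is 6.49-fold. Its DCIS.COM pLOC-*MALINC1* libraries stood above the other 6 libraries of the series, whose highest value was 2.29 CPM.

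*ID2* departed from the other *ID* genes in DCIS.COM. In MCF10A it was at 33.6 and 36.0 CPM with pLOC-empty and at 8.74 and 8.08 CPM with *MALINC1*, a log2 FC of -2.05 (SE 0.071), the most negative of the 4 *ID* genes in that line. Its level in DCIS.COM was 20.0 and 19.0 CPM with pLOC-empty and 21.3 and 21.8 CPM with *MALINC1*, a log2 FC of 0.14 (SE 0.071). The DCIS.COM groups lay side by side without overlap, but the gap between them is of the size of the spread within them.

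**Figure D2:**
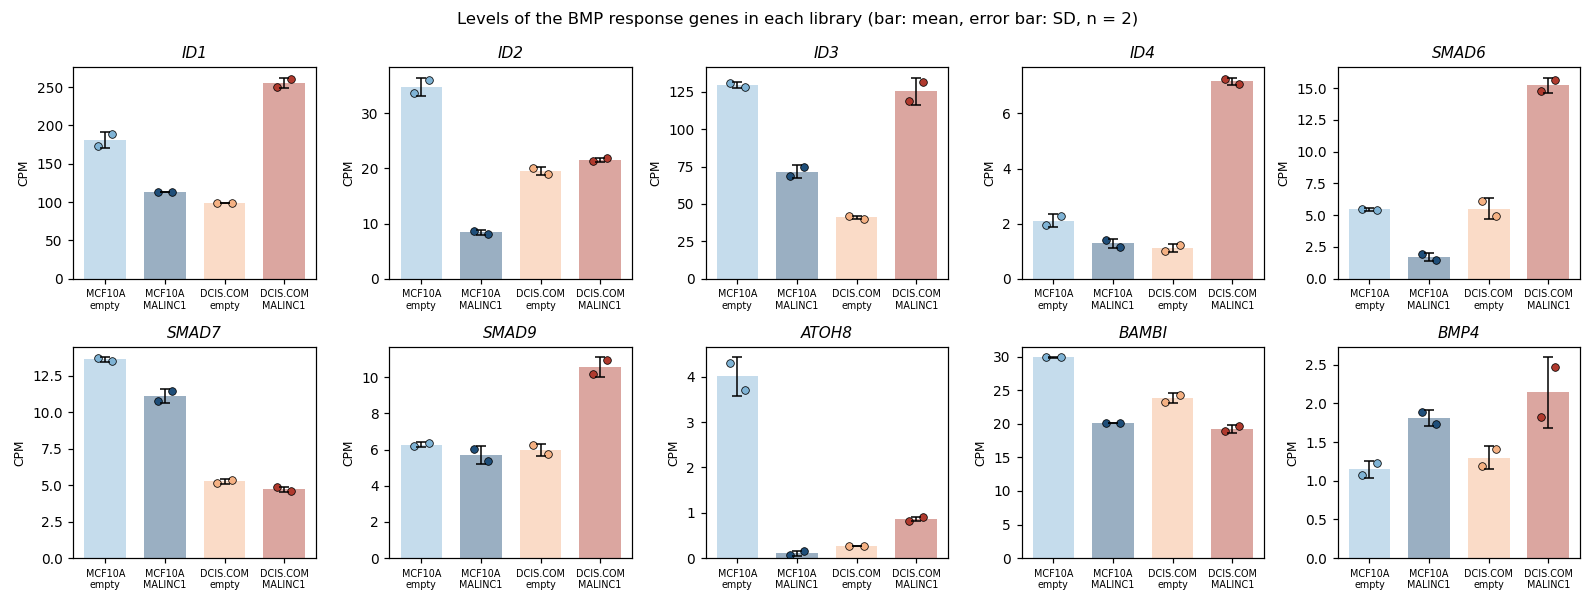
CPM (linear axis from 0, a scale of its own for each gene) of the 10 BMP response genes in each library, grouped by cell line and vector; points are libraries, bars are means and error bars are the SD of 2 libraries. *ID1*, *ID3*, *SMAD6* and *ATOH8* are lower with *MALINC1* in MCF10A and higher with *MALINC1* in DCIS.COM, *ID2* differs mainly in MCF10A, *ID4* mainly in DCIS.COM, and *SMAD7* and *BAMBI* are lower with *MALINC1* in both lines.

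Among the SMAD genes, *SMAD6*, which encodes the inhibitory SMAD that acts mainly on BMP receptors, had the pattern of *ID1* and *ID3*. It was at 5.52 and 5.38 CPM in MCF10A pLOC-empty and at 1.91 and 1.51 CPM with *MALINC1*, a log2 FC of -1.68 (SE 0.15). In DCIS.COM it was at 6.09 and 4.94 CPM with pLOC-empty and at 14.8 and 15.6 CPM with *MALINC1*, a log2 FC of 1.47 (SE 0.15). The pLOC-empty libraries of the lines overlapped, whereas with *MALINC1* the DCIS.COM level was 8.96-fold that of MCF10A.

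*SMAD7*, whose product blocks both the BMP and the TGF-beta receptors, did not follow *SMAD6*. Its level was 13.8 and 13.5 CPM in MCF10A pLOC-empty, 10.8 and 11.4 CPM in MCF10A pLOC-*MALINC1*, 5.15 and 5.37 CPM in DCIS.COM pLOC-empty and 4.85 and 4.59 CPM in DCIS.COM pLOC-*MALINC1*. The log2 FCs were -0.30 and -0.16 (SE 0.098), lower in both lines and under 2-fold. *SMAD9*, a transducing SMAD that is itself induced by BMPs in many cells, was at 6.17 and 6.36 CPM in MCF10A pLOC-empty and at 6.03 and 5.36 CPM with *MALINC1*, which is -0.14 (SE 0.11) on the log2 scale, and at 6.23 and 5.75 CPM in DCIS.COM pLOC-empty and 10.1 and 10.9 CPM with *MALINC1*, which is 0.82. The MCF10A difference of *SMAD9* was of the size of its standard error, while its DCIS.COM pLOC-*MALINC1* libraries stood above the other 6.

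*ATOH8*, a basic helix-loop-helix transcription factor gene, was the rarest of the 10 over the libraries and differed most between vectors in MCF10A. It was at 4.31 and 3.70 CPM (123 and 82 reads) in MCF10A pLOC-empty and at 0.0713 and 0.147 CPM (0 and 2 reads) with *MALINC1*. Both of the latter libraries lie under a floor of 3 reads per library, so the level was at least 34.7-fold lower, and the fitted log2 FC of -5.29 depends on the prior count. Its level in DCIS.COM was 0.258 and 0.262 CPM (4 and 4 reads) with pLOC-empty and 0.829 and 0.899 CPM (26 and 28 reads) with *MALINC1*, a log2 FC of 1.73 (SE 0.33). With 1 CPM added to every value the DCIS.COM value was 0.59, since these levels lie under 1 CPM. All DCIS.COM libraries stayed under the MCF10A pLOC-empty libraries.

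*BAMBI* and *BMP4* each differed the same way in both lines. *BAMBI*, which encodes the pseudoreceptor, was at 29.9 and 29.9 CPM in MCF10A pLOC-empty and at 20.1 and 20.1 CPM with *MALINC1*, and at 23.3 and 24.3 CPM in DCIS.COM pLOC-empty and 18.9 and 19.7 CPM with *MALINC1*. Its log2 FCs were -0.57 and -0.30 (SE 0.058). *BMP4*, a ligand of the pathway, ranged from 1.07 to 1.22 CPM in MCF10A pLOC-empty and from 1.73 to 1.88 CPM with *MALINC1*, and from 1.19 to 1.41 and from 1.82 to 2.47 CPM in DCIS.COM. Its log2 FCs were 0.66 and 0.71 (SE 0.21), so the ligand was higher with *MALINC1* in both lines, at 24 to 81 reads per library. Whether the level of *BMP4* bears on the *ID* genes was not tested.

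**Figure D3:**
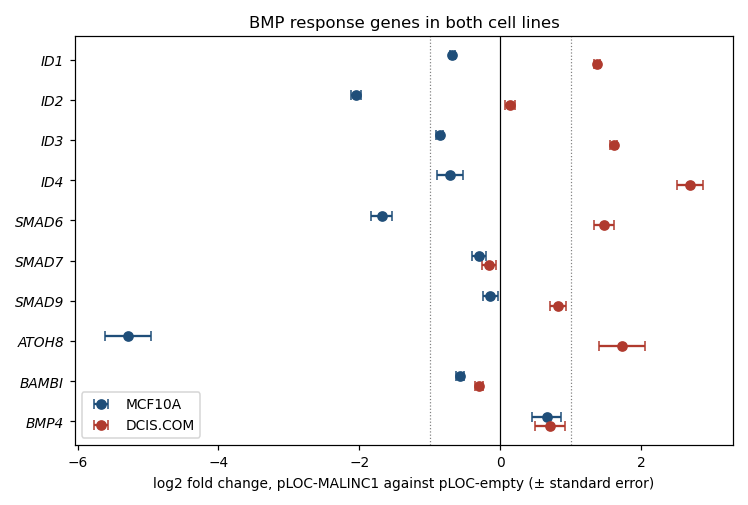
Log2 FC of the pLOC-*MALINC1* over the pLOC-empty libraries for the 10 BMP response genes in MCF10A and in DCIS.COM, with limma's SE as bars and dotted lines at a 2-fold change. *ATOH8* reaches -5.29 in MCF10A, where both pLOC-*MALINC1* libraries are under 3 reads, and *ID4* reaches 2.70 in DCIS.COM; *SMAD7*, *BAMBI* and *BMP4* have both points on the same side of 0.

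Counted over the 10 genes in MCF10A, 9 were lower with *MALINC1* without overlap between the groups and *BMP4* was higher, while 37.7% of all genes were lower and 38.8% higher without overlap. *ID2*, *SMAD6* and *ATOH8* were more than 2-fold lower, as were 2.72% of all genes, and 0 were more than 2-fold higher (3.16% of all genes). The median log2 FC of the 10 was -0.70, beside 0 over all genes. In DCIS.COM, 8 were higher without overlap and *SMAD7* and *BAMBI* were lower, while 37.6% of all genes were higher and 35.4% lower without overlap. *ID1*, *ID3*, *ID4*, *SMAD6* and *ATOH8* were more than 2-fold higher, as were 1.68% of all genes, 0 were more than 2-fold lower (3.23%), and the median was 1.09 beside 0.0089. Without overlap, 7 of the 10 were lower in the one line, MCF10A, and higher in the other (13.1% of all genes), and of these *SMAD6* and *ATOH8* were past 2-fold in both lines, as 39 of all genes (0.282%) were. Since the genes were chosen with these values known, the shares describe the choice, and nothing is read from them. Of the values past 2-fold, that of *ID1* in DCIS.COM, at 1.37, was the nearest to the limit. Those of *ID3* in MCF10A at -0.86 and of *SMAD9* in DCIS.COM at 0.82 were just under 2-fold.

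The difference between the log2 FCs, DCIS.COM minus MCF10A, was 2.05 for *ID1* (SE 0.058), 2.19 for *ID2*, 2.47 for *ID3*, 3.41 for *ID4* and 3.16 for *SMAD6*. It was 0.96 for *SMAD9* (SE 0.16). For *SMAD7*, *BAMBI* and *BMP4* it was 0.14 (SE 0.14), 0.27 (SE 0.083) and 0.051 (SE 0.30). The genes thus fell in a set with opposite signs in the lines and a set of 3 with like signs, and *ID2* and *SMAD9* had a value near 0 in 1 line.

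Compared per length of exons, with the 0.0713 CPM at which a gene without reads stands taken off each value, *ID1* was the most abundant of the 10 in every group, at 147, 91.6, 80.2 and 207 CPM per kb in MCF10A pLOC-empty, MCF10A pLOC-*MALINC1*, DCIS.COM pLOC-empty and DCIS.COM pLOC-*MALINC1*. *ID3* followed it in every group, at 86.7, 47.7, 27.4 and 83.7 CPM per kb. *ID2* came next in MCF10A pLOC-empty (15.7 CPM per kb) and in DCIS.COM pLOC-*MALINC1* (9.71), whereas *BAMBI* came next in MCF10A pLOC-*MALINC1* (9.37) and in DCIS.COM pLOC-empty (11.1). The remaining genes stood under 4 CPM per kb in every group. *ID4* ranked 9 in DCIS.COM pLOC-empty and 5 in DCIS.COM pLOC-*MALINC1*, at 0.268 ± 0.0389 and 1.83 ± 0.0345 CPM per kb (SD, n = 2). In that group *ID4*, *SMAD6* (1.77) and *SMAD9* (1.76) overlapped in their libraries and have no order, and all other neighbours in the 4 orders stood apart.

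Between the pLOC-empty libraries, which also serve as the controls of the comparisons above, 7 of the 10 genes were lower in DCIS.COM than in MCF10A without overlap, beside 43.5% of all genes. *SMAD6*, *SMAD9* and *BMP4* overlapped. *ID3* (log2 difference -1.66), *SMAD7* (-1.37) and *ATOH8* (-3.94) were more than 2-fold lower, beside 13.1% of all genes. Between the pLOC-*MALINC1* libraries the sign was turned for *ID1*, *ID2*, *ID3* and *ID4*, which were 2.26-fold, 2.56-fold, 1.75-fold and 5.59-fold higher in DCIS.COM. It was also turned for *ATOH8*, which was at least 6.99-fold higher there, since its MCF10A libraries lie under the floor of 3 reads per library. *SMAD9*, at a log2 difference of -0.066 between the pLOC-empty libraries, was 1.85-fold higher in DCIS.COM with *MALINC1*, and *SMAD7* was still 2.36-fold lower there.

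The rest of the pathway was examined with a list of 74 other genes in 7 roles, of which 53 were analysed. This list was made with earlier results of these libraries known. In MCF10A *BMP6* and *FST* rose and *BMP2* and *NEO1* fell past both thresholds of the study (limma, adjusted p below 0.01 with more than a 2-fold change), which is 4 of 53 (7.55%) beside 5.5% of all genes (2.99% higher and 2.51% lower). In DCIS.COM *BMP6* and *KCP* rose and none fell, which is 2 of 53 (3.77%) beside 4.53% (1.44% higher and 3.08% lower). The DCIS.COM call of *BMP6* did not hold when any single library of that line was left out. Without the limit on the fold, 11 rose and 16 fell in MCF10A, where 21.5% of all genes rose, 18.1% fell and 39.6% did either, and 16 rose and 7 fell in DCIS.COM, where 16.4% rose, 16.7% fell and 33.2% did either. The median log2 FCs of the 53 were -0.042 and 0.17. No member of the receptors, transducers, intracellular inhibitors, other responsive genes or E proteins passed both thresholds in DCIS.COM, and among them only *NEO1* did in MCF10A.

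Among the ligands, 5 of 12 were analysed. *BMP2*, a ligand close to *BMP4*, was at 33.5 and 34.7 CPM in MCF10A pLOC-empty and at 12.9 and 12.01 CPM with *MALINC1*. It fell by 1.46 on the log2 scale (SE 0.090, adjusted p = 7.15e-08 by limma). In DCIS.COM *BMP2* was at 5.575 and 4.94 CPM with pLOC-empty and at 7.12 and 7.28 CPM with *MALINC1*, a log2 FC of 0.46 (adjusted p = 0.00128), which is under 2-fold. The responses of *BMP2* in the lines differed by 1.91 (SE 0.13, adjusted p = 1.45e-07 by limma). Whether the level of *BMP2* bears on the *ID* genes was not tested.

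*BMP6*, another BMP ligand, rose in both lines. It was at 0.485 and 0.204 CPM in MCF10A pLOC-empty and at 0.879 and 0.751 CPM with *MALINC1* (log2 FC 1.37, SE 0.33, adjusted p = 0.00395), and at 1.70 and 1.503 CPM in DCIS.COM pLOC-empty and 3.92 and 4.42 CPM with *MALINC1* (log2 FC 1.38, adjusted p = 0.00446). These levels are low, and the call was lost in DCIS.COM when any of its 4 libraries was left out (1.29 to 1.47) and in MCF10A without the pLOC-empty replicate 2 (0.74) or either pLOC-*MALINC1* library (1.26 and 1.48). The responses of *BMP6* in the lines differed by 0.0087 (SE 0.46, adjusted p = 0.99).

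Of the 18 antagonists, which bind ligands outside the cell, 9 were analysed. *FST*, which encodes follistatin, a binder of activins that also binds some BMPs, was at 0.347 and 0.514 CPM in MCF10A pLOC-empty and at 27.6 and 25.5 CPM with *MALINC1* (log2 FC 5.97, SE 0.16, adjusted p = 4.86e-11). In DCIS.COM it was at 20.3 and 19.7 CPM with pLOC-empty and at 14.2 and 16.0 CPM with *MALINC1* (log2 FC -0.41, adjusted p = 0.0496). The antagonist was under 1 CPM in the MCF10A pLOC-empty libraries and stood between 14.2 and 27.6 CPM in the other 3 groups.

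*KCP*, a secreted modulator of BMP ligands, was at 0.491 and 0.358 CPM in DCIS.COM pLOC-empty and rose to 1.09 and 1.14 CPM with *MALINC1* (log2 FC 1.41, SE 0.18, adjusted p = 5.05e-05). In MCF10A it was at 8.49 and 8.84 CPM and at 6.73 and 6.57 CPM (log2 FC -0.38, adjusted p = 0.0977). With 0.5 CPM added to every value the DCIS.COM change was 0.86 and no longer past 2-fold. *FSTL3*, the most abundant antagonist, was at 365 and 366 CPM in MCF10A pLOC-empty and at 330 and 323 CPM with *MALINC1*, and stood between 1.79 and 2.11 CPM in all 4 DCIS.COM libraries.

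**Figure D4:**
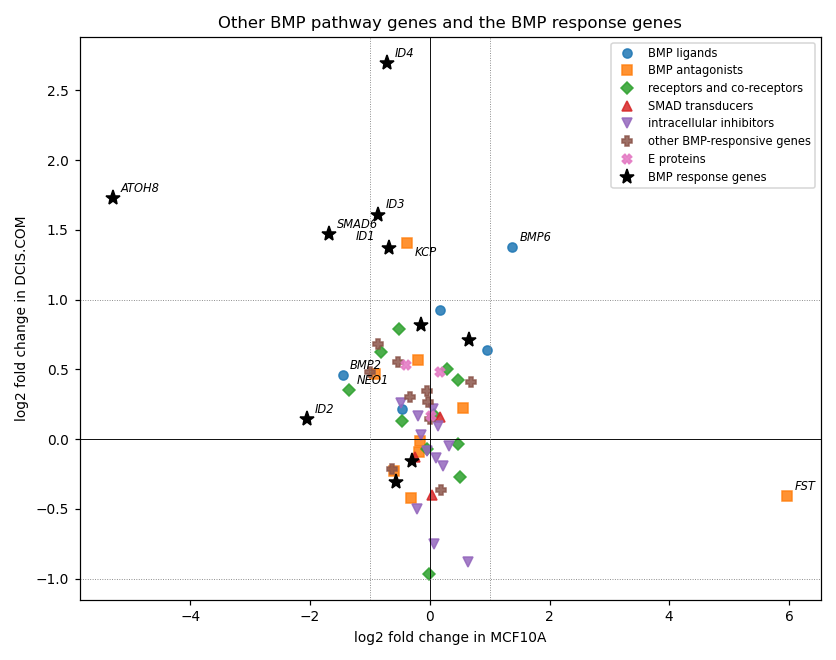
Log2 FC of the pLOC-*MALINC1* over the pLOC-empty libraries in MCF10A (horizontal) and DCIS.COM (vertical) for the 53 other BMP pathway genes, marked by role, and for the 10 BMP response genes (stars), with dotted lines at a 2-fold change. *FST* lies far to the right at 5.97 in MCF10A, *BMP6* is beyond 2-fold in both lines, and most receptors, transducers and inhibitors lie within the 2-fold lines of both axes.

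Of the 12 receptors and co-receptors, 11 were analysed, and *NEO1* alone passed both thresholds. *NEO1*, which encodes neogenin, a receptor of the RGM co-receptors, was at 1.21 and 0.780 CPM in MCF10A pLOC-empty and fell to 0.433 and 0.336 CPM with *MALINC1*. This is a log2 FC of -1.35 (SE 0.19, adjusted p = 9.83e-05), which was -0.79 with 0.5 CPM added and then under 2-fold. Its level in DCIS.COM was 39.8 and 36.7 CPM and 45.5 and 52.3 CPM with *MALINC1* (log2 FC 0.35, adjusted p = 0.159). *BMPR2*, the type II receptor of BMPs and the most abundant of this role, was at 76.3 and 72.9 CPM in MCF10A pLOC-empty and at 57.3 and 51.4 CPM with *MALINC1*, a fall of under 2-fold (log2 FC -0.46, adjusted p = 0.000101). Its DCIS.COM libraries stood between 30.9 and 36.9 CPM (log2 FC 0.13, adjusted p = 0.123). At any fold 3 of the 11 rose and 1 fell in DCIS.COM, beside 16.4% and 16.7% of all genes. The 1 that fell was *BMPR1B*, another BMP receptor gene, from 9.45 and 10.4 to 4.94 and 5.21 CPM. Its log2 FC of -0.97 (adjusted p = 1.9e-06) was just under 2-fold, and its MCF10A value was -0.0089. *BMPR1B* was named after its values were seen.

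None of the 3 transducers and 12 intracellular inhibitors passed both thresholds in either line. *SMAD5*, the most abundant transducer, went from 70.1 and 69.9 to 79.8 and 78.1 CPM in MCF10A (log2 FC 0.17, adjusted p = 0.00183) and from 113 and 116 to 125 and 131 CPM in DCIS.COM (log2 FC 0.16, adjusted p = 0.00383). It was slightly higher with *MALINC1* in both lines. Over *SMAD1*, *SMAD4* and *SMAD5* the log2 FCs ran from -0.25 to 0.17 in MCF10A and from -0.40 to 0.16 in DCIS.COM, and over the inhibitors from -0.48 to 0.64 and from -0.88 to 0.26. At any fold 3 inhibitors rose and 4 fell in each line, which is 58.3% of the 12 beside 39.6% of all genes in MCF10A and 33.2% in DCIS.COM. *CTDSPL*, a phosphatase gene, rose in MCF10A from 57.0 and 56.5 to 88.3 and 89.2 CPM (log2 FC 0.64, adjusted p = 1.43e-07) and fell in DCIS.COM from 88.8 and 83.9 to 45.7 and 48.2 CPM (log2 FC -0.88, adjusted p = 1.03e-08). Its signs were thus opposite to those of *ID1* in both lines. *FKBP1A*, the most abundant inhibitor, which holds type I receptors inactive, was at 118 and 120 CPM in MCF10A pLOC-empty and 109 and 106 CPM with *MALINC1*, and between 56.3 and 59.9 CPM in DCIS.COM.

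The E proteins, which *ID* products bind, are encoded by *TCF3*, *TCF4* and *TCF12*. *TCF3*, the most abundant, was at 89.6 and 87.8 CPM in MCF10A pLOC-empty and at 101 and 97.6 CPM with *MALINC1* (log2 FC 0.17, adjusted p = 0.00199). In DCIS.COM it rose from 100 and 99.8 CPM to 142 and 138 CPM (log2 FC 0.48, under 2-fold), and all 3 E protein genes rose there at an adjusted p below 0.01, by 0.17 to 0.53, as did 16.4% of all genes. Of the 14 other BMP-responsive genes, such as *MSX* and *DLX* homeobox genes, 10 were analysed and none passed both thresholds in either line. At any fold 1 rose and 2 fell in MCF10A, beside 21.5% and 18.1% of all genes, and 1 rose in DCIS.COM, beside 16.4%. *GATA2* fell in MCF10A from 21.9 and 21.1 to 10.9 and 10.7 CPM (log2 FC -0.995, adjusted p = 0.00365), just under 2-fold. In DCIS.COM *GATA2* was under 1 CPM and did not pass the test (log2 FC 0.48, adjusted p = 0.115). *HES1*, the most abundant of them and also a target of Notch, rose in both lines by under 2-fold, from 27.0 and 27.4 to 45.04 and 42.4 CPM in MCF10A (log2 FC 0.68, adjusted p below 0.01) and from 27.5 and 28.6 to 35.8 and 38.9 CPM in DCIS.COM (log2 FC 0.41). Over all roles, 0 of the 53 other pathway genes fell in MCF10A and rose in DCIS.COM past both thresholds, beside 30 of all genes (0.217%).

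The responses of the lines differed past both thresholds for 9 of the 53 genes (16.98% beside 9.2% of all genes). The difference, DCIS.COM minus MCF10A, was positive (3.98% of all genes) for *BMP2*, *KCP*, *NEO1*, *FSTL1*, *TGFBR3*, *DLX3* and *GATA2* and negative (5.22%) for *FST* and *CTDSPL*. *FSTL1*, *TGFBR3*, *DLX3*, *GATA2* and *CTDSPL* were named after their values were seen, and *DLX3* had no more than 3 reads in any DCIS.COM library. Between the pLOC-empty libraries 27 of the 53 genes differed (50.9% beside 28.6%), 13 higher (15.6% of all genes) and 14 lower (13%) in DCIS.COM. *BMP6*, *BMP7*, *BMP8A* and *BMP8B* were higher there and *BMP2* was lower, so the lines, each in its own medium, differed in the levels of these ligands without the insert.

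The other arm of the family signals through SMAD2 and SMAD3, and 13 of 14 listed targets of TGF-beta were analysed. In MCF10A *TGFBI* and *FN1* fell past both thresholds (15.4% beside 5.5% of all genes) and none rose, and without the MCF10A pLOC-*MALINC1* replicate 1 *TAGLN* passed as well. In DCIS.COM *TGFBI*, *LTBP2*, *TAGLN* and *SNAI2* fell (30.8% beside 4.53%) and none rose past 2-fold. At any fold 1 rose and 9 fell in MCF10A (76.9% beside 39.6% of all genes), and 3 rose and 5 fell in DCIS.COM (61.5% beside 33.2%). The difference between these targets and the *ID* genes was not tested.

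*FN1*, which encodes fibronectin, was at 1490 and 1554 CPM in MCF10A pLOC-empty and at 382 and 353 CPM with *MALINC1* (log2 FC -2.05, SE 0.042, adjusted p = 1.06e-11). In DCIS.COM it was far rarer and rose by under 2-fold, from 39.2 and 41.0 to 72.8 and 71.4 CPM (log2 FC 0.85, adjusted p = 1.18e-08). This matrix gene thus changed in opposite directions in the lines. *ITGB6*, an integrin subunit gene and the most abundant of the list over all libraries, was at 1010 and 995 CPM in MCF10A pLOC-empty and at 643 and 648 CPM with *MALINC1* (log2 FC -0.63, adjusted p = 2.1e-07), a fall of under 2-fold. In DCIS.COM it was at 243 and 255 CPM in pLOC-empty and at 230 and 255 CPM with *MALINC1*, and did not pass the test (adjusted p = 0.46).

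*TGFBI*, a matrix protein gene, was the only target to fall past both thresholds in both lines. It was at 1405 and 1350 CPM in MCF10A pLOC-empty and at 671 and 674 CPM with *MALINC1* (log2 FC -1.04, adjusted p = 9.93e-09), and at 45.03 and 44.4 CPM in DCIS.COM pLOC-empty and 15.8 and 18.0 CPM with *MALINC1* (-1.41, adjusted p = 7.19e-10). *LTBP2*, which encodes a latent TGF-beta binding protein, fell in DCIS.COM from 24.6 and 27.1 to 11.3 and 12.2 CPM (-1.14, adjusted p = 1.48e-08). *TAGLN*, an actin-binding protein gene, fell there from 4.64 and 4.22 to 1.99 and 1.61 CPM (-1.31, adjusted p = 9.07e-07). *SNAI2*, a transcription factor of epithelial-mesenchymal transition, fell from 16.2 and 16.3 to 7.79 and 8.44 CPM (log2 FC -1.004, adjusted p = 2.2e-07), which is at the 2-fold limit, and was under that limit without the DCIS.COM pLOC-empty replicate 2 or the pLOC-*MALINC1* replicate 1.

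**Figure D5:**
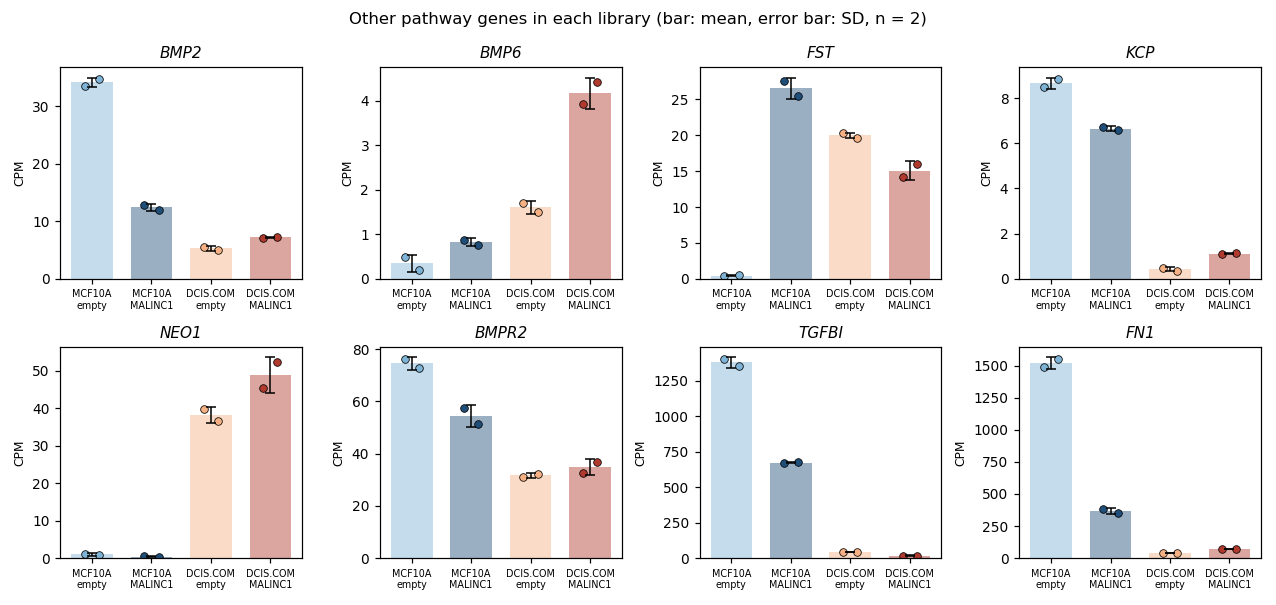
CPM (linear axis from 0, a scale of its own for each gene) of *BMP2*, *BMP6*, *FST*, *KCP*, *NEO1*, *BMPR2*, *TGFBI* and *FN1* in each library; points are libraries, bars are means and error bars are the SD of 2 libraries. *BMP2*, *TGFBI* and *FN1* are lower with *MALINC1* in MCF10A, *FST* is under 1 CPM only in MCF10A pLOC-empty, and *BMP6* is higher with *MALINC1* in both lines.

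To find the genes whose pattern was most like that of *ID1*, log2 CPM were centred within each line and the Euclidean distance over the 8 libraries was taken for 10762 other genes with a mean of at least 5 CPM. *DNER* was nearest (distance 0.133), followed by *MARCKSL1* (0.156), *KLK5* (0.189), *KLK8* (0.316) and *H2BC6* (0.344). *DNER*, which encodes a Notch ligand, was at 154 and 158 CPM in MCF10A pLOC-empty and 102 and 106 CPM with *MALINC1*, and at 18.2 and 17.9 CPM in DCIS.COM pLOC-empty and 44.2 and 45.2 CPM with *MALINC1*. *KLK5*, a secreted serine protease gene of the epidermis, was at 368 and 366 CPM and 229 and 208 CPM in MCF10A, and at 95.1 and 102 CPM and 259 and 281 CPM in DCIS.COM. The place of *KLK8* rests on 0 to 4 reads in the DCIS.COM libraries. Among the BMP response genes with a mean of at least 5 CPM, *ID3* ranked 5 of 10768 by nearness to *ID1*, *SMAD9* ranked 121, *SMAD6* 429, *SMAD7* 5452, *BAMBI* 7080 and *ID2* 8874.

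For *SMAD6* the nearest were *TNS1* (distance 0.217), *SPON2* (0.337), *DCLK1* (0.393), *KANK4* (0.415) and *VASN* (0.593). *TNS1*, which encodes the focal adhesion protein tensin 1, was at 16.2 and 15.6 CPM in MCF10A pLOC-empty and 4.92 and 4.23 CPM with *MALINC1*, and at 0.304 and 0.262 CPM in DCIS.COM pLOC-empty and 0.858 and 0.869 CPM with *MALINC1*. *VASN*, which encodes a membrane protein that binds TGF-beta, was at 57.3 and 59.2 CPM and 23.3 and 22.6 CPM in MCF10A, and at 6.18 and 6.95 CPM and 15.3 and 15.0 CPM in DCIS.COM. *SPON2* had only 2 reads in each DCIS.COM pLOC-empty library, *TNS1* had 5 and 4, and *KANK4* had 13 and 10. The DCIS.COM part of their likeness thus rests on few reads. *ID3* ranked 20 of 10768 by nearness to *SMAD6*, *ID1* 32, *ID2* 128, *SMAD9* 356, *BAMBI* 2733 and *SMAD7* 3464. These genes were picked for their likeness, so their values are a description of the pattern.

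Of the 10 epithelial markers, 2 rose past both thresholds in MCF10A, beside 2.99% of all genes, and 0 passed in DCIS.COM, beside 4.53%. They were *TP63*, a transcription factor of basal epithelium, which went from 5.31 and 4.68 CPM to 41.8 and 40.2 CPM (log2 FC 3.04, adjusted p = 1.08e-11), and *KRT14*, a basal keratin, which went from 1479 and 1424 to 2954 and 2890 CPM (log2 FC 1.01, adjusted p = 1.19e-09). In DCIS.COM *TP63* had a log2 FC of -0.19 (adjusted p = 0.0291) and *KRT14* fell by 0.59 on the log2 scale (adjusted p = 1.45e-07). The signs of these 2 markers are opposite to those of *ID1* in both lines, although *TP63* did not pass the test in DCIS.COM. Both markers were named after their values were seen. At any fold 8 of the 10 markers rose in MCF10A, beside 21.5% of all genes. In DCIS.COM 4 rose and 2 fell, beside 16.4% and 16.7% of all genes. The 4 that rose there, as *ID1* did, were *KRT5*, *CDH1*, *ITGA6* and *ITGB4*, and the 2 that fell were *KRT14* and *KRT17*.

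Markers of other cell types were looked for as well. Of 6 endothelial markers *PECAM1* alone was analysed, and its level went from 6.13 and 7.28 CPM in DCIS.COM pLOC-empty to 0.159 and 0.249 CPM with *MALINC1*, opposite in sign to *ID1* in that line, with 0.751 to 1.11 CPM in the MCF10A libraries. Of 6 fibroblast markers *COL1A1* alone was analysed, with a level of 15.2 to 15.9 CPM in MCF10A pLOC-empty, 6.68 to 7.45 CPM with *MALINC1*, and 1.58 to 2.08 CPM in DCIS.COM. Of 5 leukocyte markers *CD68* and *LCP1* were analysed, with a summed level of 128 CPM in MCF10A pLOC-empty, 117 to 120.4 CPM with *MALINC1*, and 10.2 to 11.3 and 16.3 to 17.7 CPM in DCIS.COM. The defining leukocyte marker *PTPRC* and the endothelial markers *CDH5* and *VWF* were not analysed here. Of 4 markers of luminal hormone-sensing cells *ESR1* and *FOXA1* were analysed, with a summed level of 10.5 to 11.9 CPM in MCF10A pLOC-empty, 17.5 to 18.8 CPM with *MALINC1*, and 27.0 to 28.3 and 34.4 to 39.1 CPM in DCIS.COM. The part of these and the epithelial markers in the *ID* results was not tested, and in bulk RNA fewer cells of a type and less RNA per cell cannot be told apart.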

How the data were processed

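RNA-seq libraries of 8 samples were used. According to the study's methods and the submitters' processing notes, the authors used Rsubread to map the read pairs to hg19, featureCounts to count them per gene and edgeR to normalize the counts. The deposited values are log2 CPM per gene with a prior count of 2 scaled to library size, from which whole reads were recovered for 100% of values (within 0.05 of a read). Versions, strand setting and filter were not given in the sources used here.

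The log2 CPM of all genes with at least 0.5 CPM in 2 or more libraries (13842 genes, that is all of them) entered one linear model in limma 3.58.1 (R 4.3.3; lmFit and trended eBayes, Benjamini-Hochberg adjustment over all genes, two-sided), with 4 group means over the 8 libraries. There were 4 residual degrees of freedom and 7.98 from the prior. The scripts were tested on simulated data. Calls needed an adjusted p below 0.01 and more than a 2-fold change. The 10 members and all lists were chosen with earlier results of these data known. The named genes are the members, the list genes called in either line, the most abundant gene of each list, the 5 nearest to *ID1* and to *SMAD6*, and *MALINC1*. An item of the TGF-beta list is not reported here. Exon lengths, start sites and sequences come from GRCh37 with GENCODE annotation. Tables were handled in pandas 2.3.3 and numpy 2.4.6 (Python 3.11.15), and plots drawn in matplotlib 3.10.9. Depth limits the rare genes: a group with 3 reads or fewer in every library was taken as at the floor, and counting error alone is covered by that limit. Alternatives changed the pseudocount, filter, scaling, model, thresholds and libraries.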

Additional observations from a re-analysis of the deposited data

Results flagged for a closer look

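For 7 of the BMP response genes every pLOC-*MALINC1* library stood on one side of the pLOC-empty libraries in MCF10A and on the other side in DCIS.COM. The difference of the log2 fold changes, DCIS.COM minus MCF10A, was 2.05 for *ID1*, 2.19 for *ID2*, 2.47 for *ID3*, 3.41 for *ID4*, 3.16 for *SMAD6*, 0.96 for *SMAD9* and 7.02 for *ATOH8*. These differences were not tested, because the genes had been chosen with their values known, and 13.1% of all genes showed the same arrangement of libraries. The value of *ATOH8* depends on the prior count, as its MCF10A pLOC-*MALINC1* libraries held 0 and 2 reads.

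Among the other pathway genes named here, the difference passed both thresholds by limma for *BMP2* (1.91, adjusted p = 1.45e-07), *KCP* (1.79, adjusted p = 0.000111) and *NEO1* (1.7, adjusted p = 0.000272). Their log2 FCs were negative in MCF10A and positive in DCIS.COM. Those of *KCP* in MCF10A (adjusted p = 0.0977) and of *NEO1* in DCIS.COM (adjusted p = 0.159) did not pass the test. For *FST* the difference was -6.38 (adjusted p = 4.4e-10), in the other direction. Of the TGF-beta targets, *FN1* (2.9, adjusted p = 7.68e-12) passed. In all 5 genes both pLOC-*MALINC1* libraries of a line lay on the same side of both pLOC-empty libraries of that line.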

How the results depend on the processing

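The alternatives gave 396 values for the fold changes of the 10 BMP response genes, of which 365 moved by less than the spread between libraries, 31 moved by more and 0 differed in sign. *ATOH8* varied most, from -6.78 to -2.25 in MCF10A and from 0.59 to 1.96 in DCIS.COM, and *BMP4* in DCIS.COM ran from 0.46 to 0.93. Of 678 values for the other named genes, 656 kept their side of the thresholds, 21 lost it and 1 gained it (*TAGLN* in MCF10A without the pLOC-*MALINC1* replicate 1).

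The 4 pathway genes called in MCF10A were 2 with 0.5 or 1 CPM added or with each line fitted alone, and 27 at any fold. The 2 called in DCIS.COM were 1 with 0.5 or 1 CPM added or with a minimum of 5 CPM, and 23 at any fold. At any fold the 9 genes with a different response were 22, the 27 that differed between the pLOC-empty lines were 47, and the TGF-beta targets were 10 in MCF10A and 8 in DCIS.COM, the latter 2 with 1 CPM added. Leaving out each library in turn gave 3 to 5 and 1 to 2 pathway genes in MCF10A and DCIS.COM, 7 to 9 with a different response, 25 to 27 between the lines, and 2 to 3 and 3 to 4 TGF-beta targets in MCF10A and DCIS.COM, with the lone library of a group assumed to vary like the others. These ranges are counts, and the genes behind them were not always the same, since *BMP6* lost its DCIS.COM call without any single library of that line. *NEO1* lost its call with voom on the recovered reads. The causes were not tested. TMM, median-of-ratios and quantile scaling shifted the median of all genes by less than 0.1.

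The labels number the replicates alike, but the replicate numbers of the groups did not deviate together (correlations from -0.067 to 0.038 over genes), so they are names only. A fit with a replicate block gave 4 pathway genes in MCF10A, 2 in DCIS.COM and 9 with a different response (8 with the block within lines), and changed no other count. The planned edgeR quasi-likelihood test was not run, since the deposited unit is log2 CPM. Voom on recovered reads took its place and was chosen after seeing the data.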
